A study of Mus musculus with 2 samples.

Results

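The genes described here are the NF-κB subunits and the feedback inhibitors that hold them in check, in Dicer knockout (Dicer_KO) mouse embryonic stem cells (mESCs). They were found by matching the Ensembl identifiers of the count files to 10 gene symbols, and all 10 were present among the 43629 genes listed. The 5 subunit genes are Rela, Relb, Rel, Nfkb1 and Nfkb2, the 3 inhibitor genes are Nfkbia, Nfkbib and Nfkbie, and Tnfaip3 and Csf1 complete the set. PolyA RNA was sequenced in 2 libraries, both labelled Dicer knockout. Replicate 1 was taken at passage 7 and replicate 2 at passage 4, both on the 129/Ola background. Per the study's methods, the cells derive from the E14TG2a line and were grown in serum with LIF, and paired CRISPR/Cas9 cutting followed by sorting of single cells gave independent deletions in the Dicer1 gene. Each library is therefore a single clonal line as a model, and its labels do not name its deletion. WT libraries were not analysed here, so the values below describe Dicer_KO mESCs and the difference between these libraries, and say nothing of the effect of losing Dicer. With 1 library per passage, differences between passages, lines and libraries cannot be told apart and none was tested. Whether the cultures were grown separately beyond this is not given.

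NF-κB is a family of transcription factors that bind DNA as dimers of Rel proteins. In resting cells the dimers are kept in the cytoplasm by IκB proteins. A signal from a receptor activates the IKK complex, which marks IκB for degradation and frees the dimer to enter the nucleus. Among the genes it then switches on are those of its own inhibitors, which ends the response. A slower branch works through processing of the Nfkb2 product and the partner RelB. Undifferentiated mESCs are known to have little NF-κB activity.

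The DNA motif that carries this feedback was looked for in the promoters of the genes. Since several of them were picked as feedback genes and known targets of NF-κB, its presence is no independent finding and is given as a description. RefSeq promoters (GRCm38.p6, 250 bases before to 50 bases after each transcription start) were held for 8 of the 10 genes, all but Nfkb1 and Relb. The κB consensus, read on either strand as 3 G, a purine, any 2 bases, 2 pyrimidines and 2 C, was searched, and overlapping matches were joined into sites. It was found in 6 of the 8 genes, namely Rel, Nfkb2, Nfkbia, Nfkbie, Tnfaip3 and Csf1. It was found in 8.46% of all 32851 promoters of this length and in 9.55% of the 27025 genes that have one, or 12.4% of the 12018 of these that averaged 10 counts or more. Rela and Nfkbib had no match in this window. Nfkb2 held 4 sites over its 3 start sites, Tnfaip3 held 2 and the other genes held 1 each. A match is a description of the sequence and no evidence of binding.

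The sites are shown in 30 bases each, 5′ to 3′ on the strand of the gene, with the joined motif in capitals. They lie at chr3:107760604-107760633 (minus strand) for Csf1, chr12:55492657-55492686 (minus) for Nfkbia, chr17:45555584-45555613 (plus) for Nfkbie, chr11:23771042-23771071 (minus) for Rel, chr19:46304688-46304717 (plus) for the most upstream site of Nfkb2 and chr10:19015403-19015432 (minus) for the site of Tnfaip3 nearest its start. They are given so that the common core can be seen beside the very different levels reported below.
Csf1: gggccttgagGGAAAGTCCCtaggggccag
Nfkbia: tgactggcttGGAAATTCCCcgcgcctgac
Nfkbie: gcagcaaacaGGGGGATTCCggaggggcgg
Rel: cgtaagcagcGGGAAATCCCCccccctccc
Nfkb2: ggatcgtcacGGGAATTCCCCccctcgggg
Tnfaip3: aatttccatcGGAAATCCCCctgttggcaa

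The whole promoter windows of Csf1 (chr3:107760420-107760719) and Nfkbia (chr12:55492598-55492897), both on the minus strand, are printed because these genes differed most between the libraries. The motif starts at position -154 of Csf1 and -29 of Nfkbia, counted from the transcription start. The first base transcribed is the base after the first 250.
Csf1: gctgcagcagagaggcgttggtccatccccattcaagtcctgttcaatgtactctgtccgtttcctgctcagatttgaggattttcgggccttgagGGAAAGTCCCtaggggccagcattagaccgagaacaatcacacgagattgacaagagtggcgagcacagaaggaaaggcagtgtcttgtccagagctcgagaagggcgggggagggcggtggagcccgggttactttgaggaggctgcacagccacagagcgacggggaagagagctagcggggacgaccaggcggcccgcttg
Nfkbia: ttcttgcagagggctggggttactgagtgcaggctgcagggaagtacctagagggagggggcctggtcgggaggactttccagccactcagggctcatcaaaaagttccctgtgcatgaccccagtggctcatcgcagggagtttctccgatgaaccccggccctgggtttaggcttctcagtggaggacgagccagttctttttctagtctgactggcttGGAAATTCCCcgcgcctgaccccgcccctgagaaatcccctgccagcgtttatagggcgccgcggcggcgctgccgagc

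Depth was alike in the libraries, at 41710122 counts on genes in replicate 1 and 41566184 in replicate 2. A level is given in CPM, the count scaled so that the counts on genes add up to 1000000 in each library, with the exact 95% Poisson interval of its count, which covers counting error only. A count of 3, taken as the limit of detection, equals 0.0719 CPM in replicate 1 and 0.0722 in replicate 2. Dicer1, the targeted gene, had 32.2 and 36.3 CPM, which without a WT library checks no label. The stem cell markers Pou5f1, at 937 and 1035 CPM, and Nanog, at 1139 and 631 CPM, were abundant in both libraries. Of 10 such markers, 7 were higher in replicate 1, against 51.3% of all genes that averaged 10 counts or more. Their median log2 ratio was 0.21, and the list summed to 10125 and 6517 CPM. Dppa5a, at 4792 and 2041 CPM (log2 ratio 1.11), was the 1 beyond 2-fold, against 21.4% of all genes. The defining macrophage markers Adgre1 and Lyz2 had 0 counts in both libraries, and the leukocyte marker Ptprc had 5 and 4 counts. Of the 7 haematopoietic markers 3 averaged 10 counts or more. Of these 3, Csf1r and Spi1, described below, were beyond 2-fold higher in replicate 1 and 0 were lower. Of 8 fibroblast markers, which feeder cells would bring, 3 averaged 10 counts or more, and the list summed to 27.2 and 18.1 CPM. Of these 3, 1 was beyond 2-fold, as were 21.4% of all genes that averaged 10 counts or more. Postn had 0 counts in both libraries, Col1a1 had 20 and 18, Dcn 0 and 19, Thy1 823 and 621, and Pdgfrb, the marker beyond 2-fold, 285 and 91 (log2 ratio 1.52). The part of such cells in the results below was not tested. In bulk RNA, fewer cells of a type and less RNA per cell cannot be told apart.

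All 5 subunits were expressed, and all 5 had the higher level in replicate 1. Rela, which encodes the activating subunit RelA (ENSMUSG00000024927, chr19:5637483-5648130, plus strand of GRCm38), had 1367 counts or 32.8 CPM (31.1 to 34.6) in replicate 1 and 1099 counts or 26.4 CPM (24.9 to 28.1) in replicate 2. Relb, which encodes the partner of the slower branch (chr7:19606217-19629438, minus strand), had 1261 counts or 30.2 CPM (28.6 to 31.9) and 1045 counts or 25.1 CPM (23.6 to 26.7). The intervals did not overlap for either gene, although the means of 29.6 ± 4.48 CPM for Rela and 27.7 ± 3.60 CPM for Relb (SD, n = 2) were close. Rel, which encodes c-Rel, a subunit best known from lymphocytes (chr11:23736847-23770970, minus strand), had 317 counts or 7.60 CPM (6.79 to 8.48) and 241 counts or 5.80 CPM (5.09 to 6.58). Nfkb1, whose product is a precursor that is cut to the smaller DNA-binding partner of RelA (chr3:135584655-135691547, minus strand), had 1995 counts or 47.8 CPM (45.8 to 49.98) and 1185 counts or 28.5 CPM (26.9 to 30.2). This was the widest gap among the subunits. Nfkb2, whose precursor both restrains and feeds the slower branch (chr19:46304320-46312385, plus strand), had 1181 counts or 28.3 CPM (26.7 to 29.98) and 880 counts or 21.2 CPM (19.8 to 22.6).

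The inhibitors were spread more widely than the subunits. Nfkbia, which encodes IκBα, the inhibitor that NF-κB itself induces (ENSMUSG00000021025, chr12:55489410-55492647, minus strand), had 3934 counts or 94.3 CPM (91.4 to 97.3) in replicate 1 and 2078 counts or 49.99 CPM (47.9 to 52.2) in replicate 2. It was far above the other inhibitors in each library. Nfkbib, which encodes IκBβ (chr7:28758251-28767512, minus strand), had 988 counts or 23.7 CPM (22.2 to 25.2) and 912 counts or 21.9 CPM (20.5 to 23.4). Nfkbie, which encodes IκBε (chr17:45555703-45563169, plus strand), had 81 counts or 1.94 CPM (1.54 to 2.41) and 70 counts or 1.68 CPM (1.31 to 2.13). For Nfkbib and Nfkbie the intervals of the libraries overlapped. In GENCODE M21 the exons of Nfkb2 share 299 bases with Psd and 531 with the noncoding gene AC114539.1, and those of Nfkbib share 314 with Ccer2 and 42 with Sirt2, all on the opposite strand. The kit marks strand, but whether the counting used it is not given in the sources used here, so these counts are uncertain to that extent.

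Tnfaip3 had the same level in both libraries within counting error, and Csf1 did not. Tnfaip3 encodes a ubiquitin-editing enzyme that shuts off signalling upstream of IKK (ENSMUSG00000019850, chr10:19000910-19015657, minus strand). It had 224 counts or 5.37 CPM (4.69 to 6.12) in replicate 1 and 225 counts or 5.41 CPM (4.73 to 6.17) in replicate 2. Csf1 encodes the growth factor of macrophages (M-CSF) and is a known target of NF-κB (ENSMUSG00000014599, chr3:107741048-107760469, minus strand). It had 234 counts or 5.61 CPM (4.91 to 6.38) in replicate 1 and 5 counts or 0.120 CPM (0.0391 to 0.281) in replicate 2. Csf1 was thus a clearly detected transcript in replicate 1 and close to the limit of 3 counts in replicate 2.

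**Figure D1:**
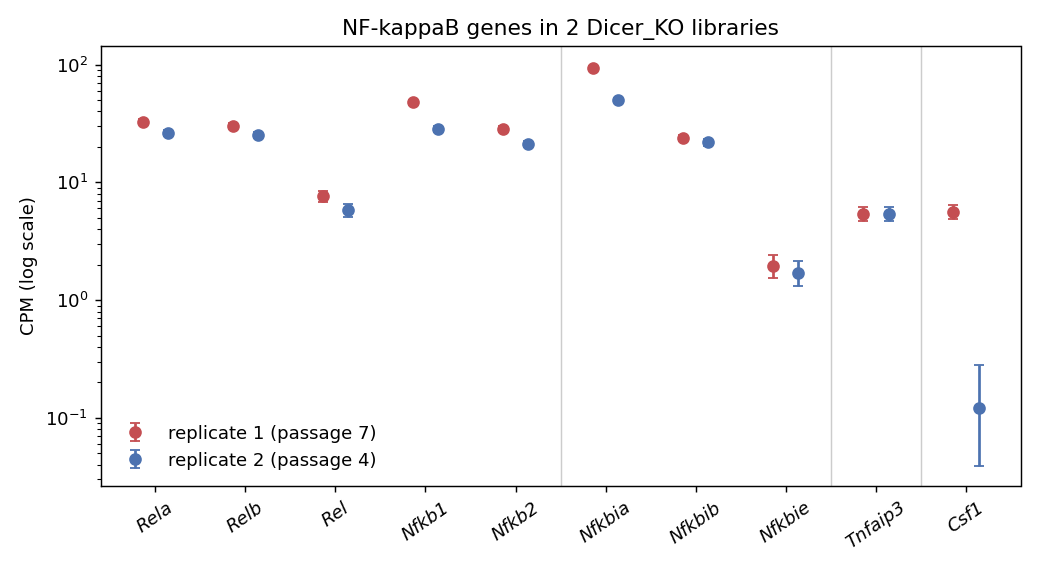
Level of each gene in CPM (y axis, log scale) in replicate 1 (red) and replicate 2 (blue), with exact 95% Poisson intervals as bars; grey lines part the subunits, the inhibitors, Tnfaip3 and Csf1. Csf1 stands at 5.61 and 0.120 CPM, and the next widest gap is that of Nfkbia, at 94.3 and 49.99 CPM.

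Because CPM grows with the length of a transcript, genes were compared with each other as CPM per kb of merged exons. Nfkbia had the highest level on this scale, at 58.6 and 31.1 CPM per kb (44.8 ± 19.5, SD, n = 2), above 93.3% of the 17651 genes that averaged 10 counts or more and had a known length. Nfkbib followed at 10.5 ± 0.569 and Rela at 9.64 ± 1.46 CPM per kb, and the ranges of these neighbours overlapped. Below them stood Relb at 7.13 ± 0.927, Nfkb2 at 5.40 ± 1.10 and Nfkb1 at 3.16 ± 1.13 CPM per kb, whose ranges did not overlap. These subunits lay near the middle of all genes, from the 43.7th to the 60.7th percentile. The low end of the order was held by Rel at 0.897 ± 0.171, Tnfaip3 at 0.746 ± 0.00417, Nfkbie at 0.595 ± 0.0599 and Csf1 at 0.543 ± 0.735 CPM per kb (SD, n = 2), the range of Csf1 covering those of the other 3.

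The place of Nfkb1 depended on the length taken for it. Its merged exons add up to 12061 bases over 10 annotated transcripts, while its longest transcript has 4149 bases. Per kb of the longest transcript Nfkb1 had 11.5 and 6.87 CPM, or 9.20 ± 3.29 (SD, n = 2), between Rela at 10.9 ± 1.65 and Relb at 8.46 ± 1.10. It then overlapped both. At the low end Tnfaip3, at 0.870 ± 0.00487, then lay within the range of Rel, and Csf1, at 0.686 ± 0.9296, had a higher mean than Nfkbie, at 0.603 ± 0.0607 CPM per kb (SD, n = 2).

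**Figure D2:**
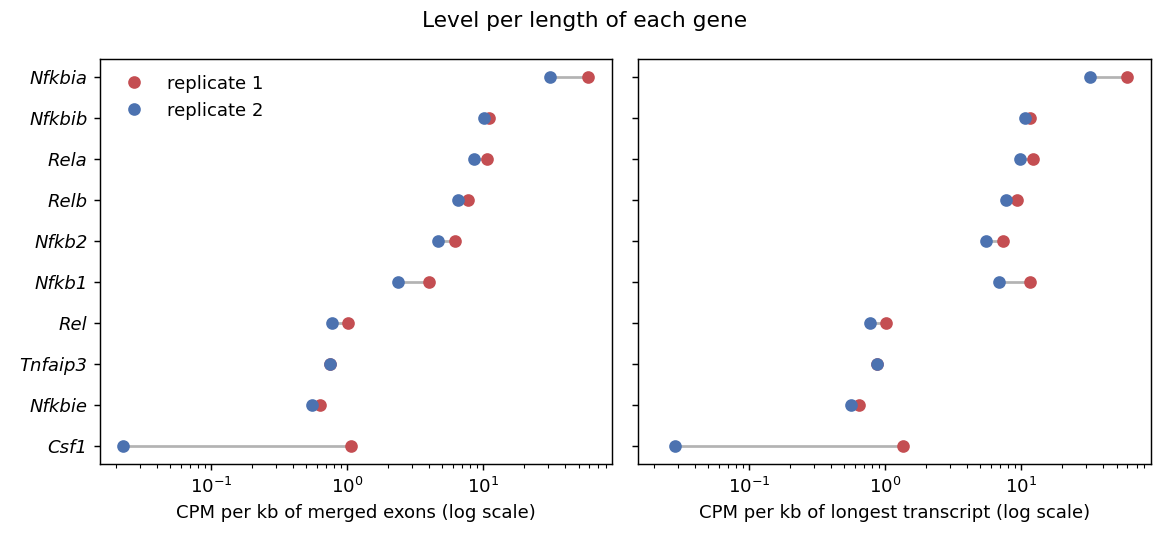
Level per length of the 10 genes in replicate 1 (red) and replicate 2 (blue), in CPM per kb of merged exons (left) and of the longest transcript (right), both on log scales; grey bars join the libraries. Nfkbia leads on either scale and Nfkb1 moves from 3.16 to 9.20 CPM per kb.

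Within the Rel family, the makeup was alike in the libraries. On the merged exon scale Rela made up 36.0% of the summed subunit level in replicate 1 and 37.7% in replicate 2, and Relb 26.3% and 28.3%. Rel contributed only 3.44% and 3.40%. The share that differed most was that of Nfkb1, at 13.4% and 10.4%, or 28.0% and 22.5% when the longest transcript gave the length. Rela stood to Relb at a ratio of 1.37 in replicate 1 and 1.33 in replicate 2. The inhibitors differed more. Nfkbia made up 83.5% of the summed inhibitor level in replicate 1 and 74.4% in replicate 2, and Nfkbib 15.6% and 24.2%. The summed inhibitors stood to the summed subunits at 2.37 and 1.83, and Nfkbia to Rela at 5.49 and 3.61.

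Between the libraries, 9 of the 10 genes lay within 2-fold and Csf1 alone lay beyond it. The counts of replicate 2 were first brought to the scale of replicate 1 with TMM, a method that evens out the bulk of genes, and 1 was added to each count before the log2 ratio (replicate 1 over 2) was formed. Folds and their exact 95% binomial intervals, on either scale, were taken from the scaled counts without that addition. Of the 17788 genes averaging 10 counts or more, 21.4% were beyond 2-fold, 14.2% with the higher level in replicate 1 and 7.14% with the lower. All 10 genes passed that minimum. Of them 8 were higher in replicate 1 and 2 were lower (9 and 1 when scaled by total counts, by DESeq2 size factors or not at all), while 51.3% of all genes were higher. The interval excluded equality for 7 of the 10 genes, against 73.2% of all genes, so counts of this depth separate most genes of these libraries. Without Csf1, the count beyond 2-fold was 0 of 9.

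Csf1 had a log2 ratio of 5.19 (4.18 to 7.06). Without the added count, which lowers the ratio of so small a count, the level was 43.0-fold higher in replicate 1 (18.2 to 134). Of the 17788 genes only 5 had a higher ratio. Nfkbia was next at 0.80 (0.72 to 0.88), or 1.74-fold, and 18.2% of all genes had a higher ratio than it. Nfkb1 followed at 0.63 (0.52 to 0.73), or 1.55-fold. The other subunits were nearer to equality, with Nfkb2 at 0.30 (0.18 to 0.43), Rel at 0.27 (0.03 to 0.52), Rela at 0.19 (0.08 to 0.31) and Relb at 0.15 (0.03 to 0.27) on the log2 scale. For these 6 genes and Csf1 the interval lay above 0. The intervals of Nfkbie, at 0.09 (-0.39 to 0.57), Nfkbib, at -0.01 (-0.14 to 0.12), and Tnfaip3, at -0.13 (-0.40 to 0.14), included 0, so no difference was detectable for them at this depth. The sign of Nfkbib changed with the scaling, from -0.01 to 0.11 with total counts. The median log2 ratio of the 10 genes was 0.23, and that of all genes 0.02.

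**Figure D3:**
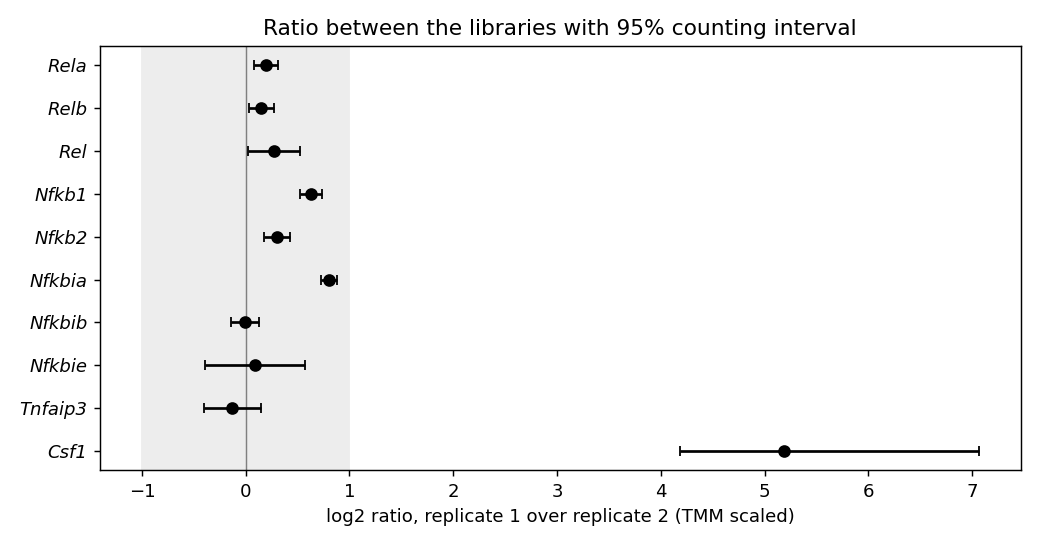
Log2 ratio of replicate 1 over replicate 2 after TMM scaling (x axis) for each gene, with the exact 95% binomial interval for counting error; the grey band marks 2-fold. Csf1 stands at 5.19, and the other genes lie between -0.13 and 0.80.

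**Figure D4:**
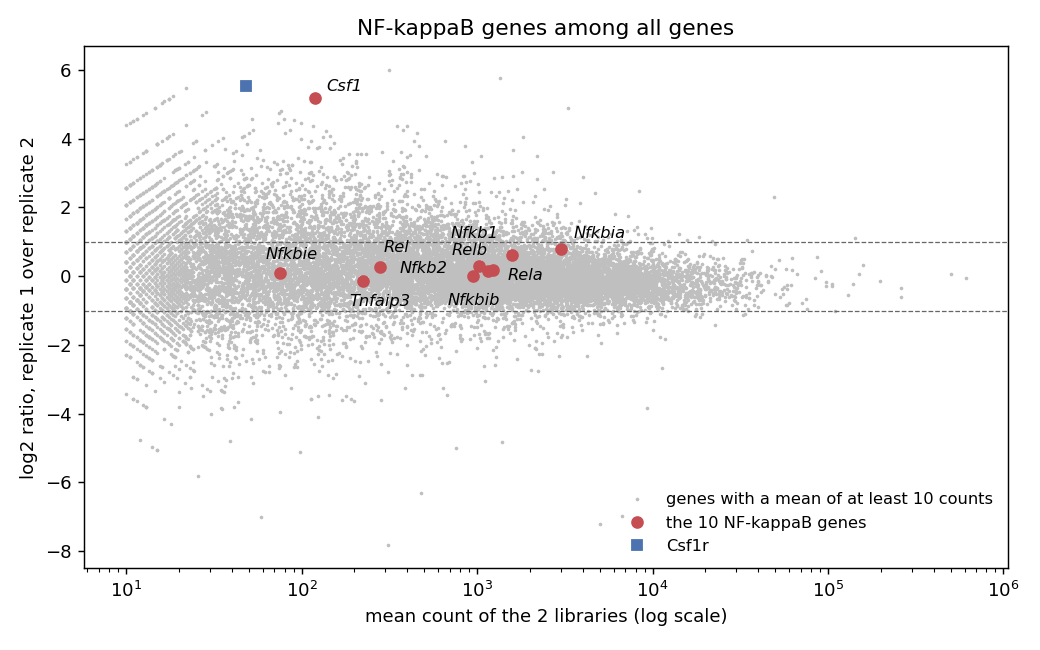
Log2 ratio of replicate 1 over replicate 2 (y axis) against the mean count of the libraries (x axis, log scale) for 17788 genes that averaged 10 counts or more (grey), the 10 genes (red) and Csf1r (blue square); dashed lines mark 2-fold. Csf1 and Csf1r, at 5.19 and 5.52, lie at the upper edge of the cloud, and the other 9 genes within it.

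The receptor of Csf1 showed the same one-sided presence. Csf1r, the tyrosine kinase that binds M-CSF, had 95 counts or 2.28 CPM in replicate 1 and 1 count or 0.0241 CPM in replicate 2, a log2 ratio of 5.52 (3.93 to 11.77). Spi1, a transcription factor of the myeloid lineage, had 82 and 31 counts, a log2 ratio of 1.26 (0.67 to 1.93). Il34, which encodes the other ligand of that receptor, had 286 and 268 counts, and its interval included equality at -0.03 (-0.27 to 0.22). Csf2 had 0 counts in both libraries and Csf3 had 1 count in each. Some markers of other cell types were also higher in replicate 1. The counts of markers below stand beside 14.2% of all genes beyond 2-fold higher and 7.14% lower. Of 6 primitive endoderm markers 5 averaged 10 counts or more, of which 2 were beyond 2-fold higher and 0 lower (median log2 ratio 0.76). The 2 were Gata6 at 16 and 5 counts and Dab2, on chromosome 15, at 52 and 17. Their intervals, 0.04 to 3.36 and 0.68 to 2.37 on the log2 scale, both reached below 2-fold. Off chromosome 15, 1 of 4 was beyond 2-fold higher and the median log2 ratio was 0.55. Of the 5 markers, 4 were higher in replicate 1, and Pdgfra, at 83 and 87 counts (-0.19), was not. The list summed to 18.2 and 10.6 CPM. Trophectoderm is a lineage in which Csf1r is known to be expressed. Of 7 trophectoderm markers 6 averaged 10 counts or more, and these 6 were all beyond 2-fold higher in replicate 1, as were the 4 of them that lie off chromosome 15 (median log2 ratio 1.55). Krt18 had 172 and 21.2 CPM and Krt8 had 192 and 33.0 CPM, both on chromosome 15. The 7 markers summed to 464 and 89.9 CPM, most of it from these keratin genes. The remaining marker, Cdx2, which defines the lineage, had 6 and 1 counts. Of 7 haematopoietic markers 3 averaged 10 counts or more, of which 2, Csf1r and Spi1, were beyond 2-fold higher and 0 lower (median log2 ratio 1.26). The list summed to 35.9 and 34.9 CPM. Most of that was Cd68, at 31.2 and 33.9 CPM (log2 ratio -0.24), so the sum says little of the other markers. The part of these cell types in the level of Csf1 was not tested.

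The rest of the pathway was read from lists of 110 other genes, of which 89 averaged 10 counts or more. Of these, 20 were beyond 2-fold higher in replicate 1 and 6 were lower, against 14.2% and 7.14% of all genes, and their median log2 ratio was 0.11. The lists are small, and their counts below are descriptions beside these shares. Of 17 genes of the IKK complex and of the kinases upstream with their binding partners, 1 was higher, 1 lower and 15 within 2-fold, with a median of -0.08 that became 0.04 under total counts. Chuk, which encodes IKKα, had 93.1 and 98.7 CPM, Ikbkb, which encodes IKKβ, had 48.0 and 46.0 CPM, and Ikbkg, the scaffold of the complex, had 59.7 and 39.8 CPM. The higher gene was Tab1, which encodes a partner that activates the kinase TAK1, at 24.7 and 7.94 CPM (log2 ratio 1.52). The lower was Irak3, which restrains signalling from Toll-like receptors, at 68.8 and 139 CPM (-1.13). Tab1 lies on chromosome 15, whose 683 genes had a median log2 ratio of 0.59, against 0.00 for the genes elsewhere. None of the 10 NF-κB genes lies on that chromosome.

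Adaptors, negative regulators and IκB relatives were read in the same way, each against the 21.4% of all genes beyond 2-fold. Of 19 adaptors and ubiquitin ligases 3 were beyond 2-fold, all higher in replicate 1. They were Traf1, itself a target of NF-κB, at 225 and 44 counts (log2 ratio 2.21), Card10, on chromosome 15, at 2898 and 1042 counts (1.35), and Traf5 at 65 and 24 counts (1.28). Of 13 negative regulators 2 were beyond 2-fold, both higher in replicate 1. They were Pdlim2, a ligase that acts on RelA, at 377 and 61 counts (2.49), and Usp18, which is best known as an interferon-induced protease, at 53 and 3 counts (3.66, interval 2.395 to 6.344). The lowest ratios among the 13 were those of Zc3h12a (-0.72), Cactin (-0.52) and Tax1bp1 (-0.35), all within 2-fold. All 4 other IκB genes were within 2-fold, Bcl3 being the most abundant of them at 35.2 and 27.9 CPM.

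Receptors come next. Of 17 receptor genes 12 averaged 10 counts or more, of which 6 were higher in replicate 1, 2 were lower and 4 were within 2-fold, with a median log2 ratio of 0.94, where 14.2% of all genes were higher and 7.14% lower. Tnfrsf13c, a BAFF receptor gene on chromosome 15, had 86 and 10 counts (2.87), Cd40 had 76 and 14 counts (2.25), and Tnfrsf11a, which encodes RANK, had 91 and 18 counts (2.16). The highest levels per kb of merged exons were those of the TNF receptor genes Tnfrsf1a, at 12.5 and 7.18 CPM per kb, and Tnfrsf1b, at 8.90 and 6.67 CPM per kb. Lower in replicate 1 were Tlr5, the receptor of flagellin, at 22 and 129 counts (-2.62), and Tlr3, a sensor of double-stranded RNA, at 132 and 264 counts (-1.12). Ligands were scarce. Il1a, Il1b and Cd40lg had 0 counts in both libraries, and Tnf had 0 and 3. Of the 10 ligand genes 4 averaged 10 counts or more. Of these, Il18 was higher in replicate 1, at 16 and 4 counts (1.67, interval 0.25 to 3.92, which reached below 2-fold). Tnfsf11, which encodes RANKL, was lower, at 87 and 215 counts (-1.42, interval -1.80 to -1.06).

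Targets of NF-κB lay on both sides of equality. Of 30 listed targets 20 averaged 10 counts or more, and 6 were higher, 2 lower and 12 within 2-fold, with a median log2 ratio of 0.44, against the same shares of all genes. The highest ratio was that of Tnfaip2, at 376 and 33 counts (3.35). Traf1, also on the list of adaptors, and Ier3, an immediate early gene at 822 and 163 counts, each had 2.21. Myc, on chromosome 15, had 128 and 569 counts (-2.27) and Ptgs2, the inducible cyclooxygenase gene, had 113 and 323 counts (-1.63), both lower in replicate 1. The targets with the highest levels per length were all within 2-fold, namely the cyclin gene Ccnd1 at 7459 and 11379 counts (-0.73), the antigen presentation gene Tapbp at 6771 and 3406 (0.87) and the adhesion gene Icam1 at 4440 and 4736 (-0.21). Among the targets below the minimum, Cxcl2 had 0 counts in both libraries and Il6 had 1 and 0. Lcn2, at 10 and 0 counts, and Ccl2, at 7 and 0, were higher in replicate 1. Cxcl1, at 0 and 2 counts, Ccl20, at 4 and 5, and Vcam1, at 5 and 7, had fewer counts in replicate 1. Their intervals included equality, so no difference was detectable for them.

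**Figure D5:**
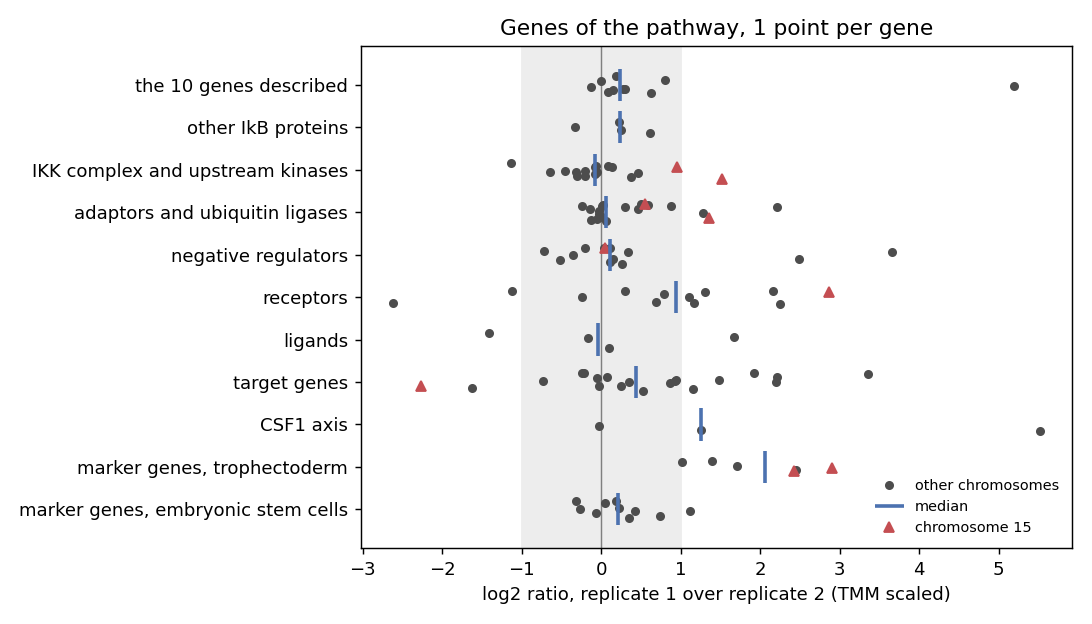
Log2 ratio of replicate 1 over replicate 2 (x axis) for each gene that averaged 10 counts or more, by list (rows); blue lines are medians, red triangles are genes on chromosome 15 and the grey band marks 2-fold. The IKK and kinase list centres on -0.08 (0.04 under total counts), the receptors on 0.94 and the trophectoderm markers on 2.07.

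In the transcripts, sites of the microRNAs that Dicer makes were sought because the cells carry a knockout of that enzyme. The 7 bases AGCACTT pair with AAGUGCU, bases 2 to 8 of mmu-miR-294-3p and of 4 other RefSeq microRNAs of the miR-290 and miR-302 clusters. The 3′ UTR searched was that of the transcript with the longest coding sequence, the longer transcript in a tie (GENCODE M21, sense strand). This is not always the longest transcript, and other transcripts were not searched. The 7-base match was found in 0 of the 10 genes, against 13.1% of 20650 coding genes. The shorter match GCACTT, which lies within it, was found only in Csf1, against 26.1% of coding genes. That stretch, at chr3:107742087-107742116 on the minus strand of GRCm38, is shown with the match in capitals. With the base before it, the match in Csf1 reads TGCACTT. These 7 bases pair with AAGUGCA, bases 2 to 8 of mmu-miR-291b-3p, a member of the miR-290 cluster with another seed. How often TGCACTT occurs among all coding genes was not counted.
Csf1: caggtttctgcatcttGCACTTtgacattc
The AU-rich heptamer TATTTAT, a motif of unstable transcripts, was found in 4 of the 10 genes, with 2 matches each in Rel, Nfkbia and Tnfaip3 and 1 in Csf1, against 25.4% of coding genes. The 3′ UTRs of the 10 genes ran from 133 bases in Nfkb2 to 5418 in Rel, and the median of all coding genes was 796 bases. A longer UTR holds more matches of any motif, and no site was measured here.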

How the data were processed

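The authors deposited whole-number counts per Ensembl gene, without normalization, for 2 Dicer_KO libraries. Per the study's methods, reads were trimmed with Trimmomatic, aligned with STAR (2.4.2a in the submitters' processing notes) to mm10, allowing many multiple hits, and counted with featureCounts (1.4.5-p1), leaving out reads on overlapping regions. How reads with several alignments were counted is not given in the sources used here. Symbols were known for 42462 of 43629 identifiers. TMM factors came from edgeR 4.0.16 (R 4.3.3) over all genes and multiply replicate 2 by 1.09. No model was fitted and no p-value computed, since both libraries form 1 group. Exact Poisson and binomial 95% intervals used scipy 1.17.1. The ratio, the scaling and the interval were checked on simulated data. Alternatives were DESeq2 1.42.0 size factors, total or raw counts, a pseudocount of 0.1, other minimums (none, 100 counts), other thresholds (1.5-fold, 4-fold), another length and leaving out each library. The genes and lists were chosen with earlier results of these data known. From each list the text draws on the 3 genes with the highest level per length and the 3 with the highest and lowest ratio. Not all of these genes are named. Chuk, Ikbkb and the genes and markers printed at or near 0 counts were chosen after their values were seen. Positions, lengths and UTRs came from GENCODE M21 (GRCm38).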

Additional observations from a re-analysis of the deposited data

How the results depend on the processing

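No paired analysis was possible because the samples form a single group. Of 194 values recomputed, 167 were called unmoved, 19 moved and 8 changed sign. Ratios, list medians and levels were held to their spread. Counts of genes were called unmoved within a factor of 1.5 of the main count, which is no measure of spread. Leaving out a library gives the other library's level, which cannot move a mean of 2 by more than its SD, so those 40 values, which did not move, are uninformative. Without TMM the median log2 ratio of all genes went from 0.02 to 0.14, with total counts as with raw counts. The log2 ratio of Nfkbib, -0.01, became 0.0032 with DESeq2 size factors, 0.11 with total counts and 0.12 with raw counts. With total counts and raw counts the median of the IKK and kinase list became 0.042 and 0.047 and that of the ligands, -0.03, became 0.082 and 0.087. With a minimum mean of 100 counts the median of the CSF1 genes, 1.26, became -0.028, since Csf1r and Spi1 then drop out. The NF-κB genes beyond 2-fold numbered 1, and 3 beyond 1.5-fold, which adds Nfkbia and Nfkb1. The other pathway genes beyond 2-fold numbered 26, with 38 beyond 1.5-fold and 11 beyond 4-fold. They numbered 34 with no minimum count, 15 with a minimum mean of 100 counts and 22 without chromosome 15. Leaving out chromosome 15 was an alternative chosen after seeing the data. Depth limits the ratios of Csf1, with 5 counts in replicate 2, Usp18, with 3, and Csf1r, with 1.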
